A study of Mus musculus with 2 samples.

Results

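Stromal cell surface markers are the antigens by which mesenchymal and stromal cells are commonly sorted, and 9 of their genes were followed here: *Thy1*, *Cd44*, *Eng*, *Nt5e*, *Ly6a*, *Ly6c1*, *Cd34*, *Alcam* and *Mcam*. They were chosen by name, and their values are the summed copies of sense tags that belonged to 1 gene only, in 2 libraries of digital gene expression (DGE) tags. A listed tag was found for 8 of the 9, so 8 of the 14450 genes tested were markers. GC-1spg is a mouse line made from type B spermatogonia of a 10 days old animal with the plasmid pSV3-neo, and by its label it stands between the type B spermatogonium and the primary spermatocyte. GC-2spd (ts) is a mouse spermatocyte line of an animal aged 6 weeks that carries SV40 large T antigen, and its label describes an arrest before meiosis. Both lines are thus immortalised, they were grown in the same medium, no strain is named in the sources used here, and each is represented by 1 library. The tests below therefore compare the libraries and not the cell lines, and their errors cover counting only.

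The markers belong to several protein families. THY1 and the Ly6 proteins are small glycoproteins held in the outer membrane by a glycosylphosphatidylinositol (GPI) anchor, as is the ecto-nucleotidase NT5E (CD73), which makes adenosine from AMP. CD44 is the main receptor for hyaluronan, endoglin (ENG, CD105) is a co-receptor of the TGF-beta and BMP family, CD34 is a sialomucin, and ALCAM (CD166) and MCAM (CD146) are adhesion molecules of the immunoglobulin superfamily. None of them is a marker of one cell type alone: *Ly6a* (Sca-1) and *Cd34* also mark blood stem cells, and *Thy1* is present on spermatogonial stem cells as well as on fibroblasts.

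A DGE tag is the CATG cut by NlaIII with the 17 bases that follow it, and a transcript gives in principle 1 tag, from the CATG nearest its 3′ end. The tag with most copies is shown for each listed marker, beside the further *Cd44* tags on which its ratio turns and the last tag of *Thy1*; the capitals mark the NlaIII site, and the letters run 5′ to 3′ on the strand of the gene.

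Cd44, last site of the long transcripts: CATGtccatattttgtatgtt
Cd44, unmatched tag of GC-1spg, equal to that site less 2 adjacent bases: CATGtctattttgtatgttct
Cd44, last site of the 3′ UTR shared with shorter transcripts: CATGgctgtgtttgttggtgc
Cd44, site at the stop codon: CATGaagattggggtgtagtg
Eng: CATGagaggactaatcctagg
Ly6a: CATGtatcctgaatgtccccc
Ly6c1: CATGtatgcctgtcaatgacc
Cd34: CATGtgctcccttgcaagggt
Alcam: CATGggacctttttgaagtag
Mcam: CATGtgagctttgggggccag
Nt5e: CATGttggtttcctagtgttt
Thy1, last site, not listed in either library: CATGtataataccaccactgc

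Of the 9 markers, 3 were called higher in GC-2spd (ts) (*Cd44*, *Eng*, *Cd34*), 2 were called lower (*Ly6a*, *Alcam*), 3 were not called (*Ly6c1*, *Mcam*, *Nt5e*) and *Thy1* was not listed. A call needed an FDR of at most 0.001 in the two-sided Audic-Claverie test and an absolute log2 ratio of TPM (copies per 1000000 clean tags) of at least 1. Over all 14450 genes, 11.7% were called higher, 7.84% lower and 19.5% in either direction, and among the 9594 genes with at least 30 tags the share called was 26.2%. Of the 9 markers, 6 reached 30 tags, and 5 of those 6 were called. The median log2 ratio of the 8 listed markers, with 0.5 tags added to both counts, was 0.65, beside 0.13 for all genes tested. With genes unlisted in 1 library set at their bound, these medians were -0.05 and 0.00.

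**Figure D1:**
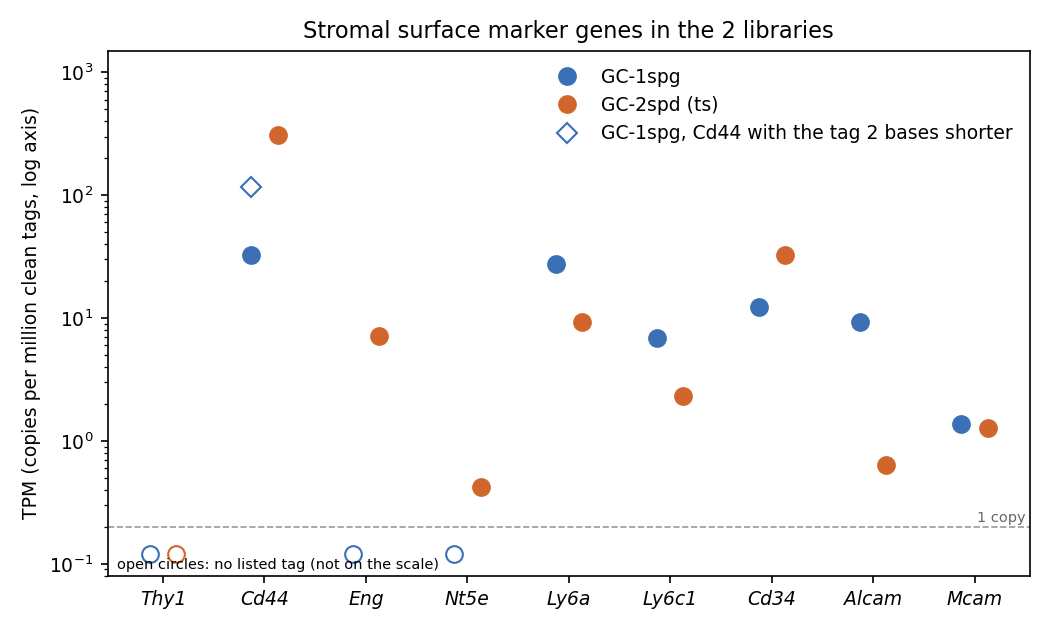
Level of each of the 9 markers in TPM (log axis) in the GC-1spg library (blue) and the GC-2spd (ts) library (orange), with open circles below the dashed line for genes without a listed tag and an open diamond for *Cd44* in GC-1spg when the tag 2 bases shorter than its last site is counted. The libraries cross over: *Cd44*, *Eng* and *Cd34* lie higher in GC-2spd (ts), *Ly6a*, *Ly6c1* and *Alcam* lie higher in GC-1spg, and *Thy1* is absent from both lists.

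*Cd44*, the hyaluronan receptor gene at chr2:102811141-102901665 (GRCm38, minus strand), had 165 copies in the GC-1spg library against 1464 copies in the GC-2spd (ts) library, which is 32.5 against 310 TPM. By these matched tags it was 9.52-fold higher in GC-2spd (ts) (log2 ratio 3.25, 95% interval 3.02 to 3.49, FDR 3.75e-278). In GC-2spd (ts) it stood above 98.1% of the genes tested, and in GC-1spg above 75.6%. The size of this difference turned on the last CATG site of the gene, which lies at chr2:102811806-102811826 in the 3′ UTR of exon 19, 686 bases from the end of the longest transcript. Its tag had 876 copies in GC-2spd (ts), 59.8% of all sense copies of the gene (95% interval 57.3 to 62.4), and was not listed in GC-1spg.

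The GC-1spg library listed another tag that GC-2spd (ts) did not, with 423 copies, which matched no transcript on either strand with up to 1 mismatch. It is the second sequence shown above, and it equals the transcript at the last *Cd44* site with 2 adjacent bases left out. When this tag is counted for *Cd44*, GC-1spg had 588 copies (116 TPM), and the ratio was 2.67-fold (log2 ratio 1.42, 95% interval 1.28 to 1.56, FDR 6.32e-98), which still passed the thresholds. At the last site alone, 423 against 876 copies gave a 2.22-fold difference (log2 ratio 1.15, interval 0.98 to 1.32). Whether this tag came from *Cd44* was not tested, because only transcripts and no genome sequence were searched. At the same CATG, the tag read from the opposite strand was listed in both libraries, 14 times in GC-1spg against 40 times in GC-2spd (ts).

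A search of all 173 CATG sites of the 9 genes for tags that differ from a site by up to 3 adjacent bases removed or added, or by 2 mismatches, found 8 tags that match no transcript. The *Cd44* tag was the only one of them with at least 10 copies in a library, and the others had at most 5 copies. No such tag was found for any site of *Eng* or *Alcam*.

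The sites upstream of the last one gave a *Cd44* difference that does not depend on it. The site at the stop codon (chr2:102814131-102814151), 3011 bases from the end of the longest transcript, had 72 against 210 copies (GC-1spg first), a log2 ratio of 1.65 (interval 1.25 to 2.05). The site 1760 bases from that end (chr2:102812880-102812900), the last of the 3′ UTR that shorter transcripts share, had 73 and 288 copies, a log2 ratio of 2.08 (interval 1.71 to 2.47). Their intervals overlap. A site across exons 2 and 3 had 15 and 34 copies, and a site across exons 16 and 17 had 5 and 15 copies, so all 4 sites listed in both libraries were higher in GC-2spd (ts). Summed over every tag short of the end of the shorter transcripts, *Cd44* had 165 and 570 copies, a 3.71-fold difference (log2 ratio 1.89, interval 1.64 to 2.15).

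CD44 is made in many forms by splicing of its variable exons, which code for a stretch of the extracellular stem, and the standard form lacks them all. The longest transcript has 20 CATG sites, of which 4 had a listed sense tag in the GC-1spg library against 9 in GC-2spd (ts). Of its 7 sites in exons 6 to 14, 6 had no copy in either library and the remaining site, in exon 14, had 2 copies in GC-2spd (ts). A library built from the site nearest the 3′ end seldom samples internal exons, so these zeros do not show which forms were present. Tags beyond the end of the shorter transcripts made up 61.1% of the sense copies in GC-2spd (ts) (interval 58.5 to 63.6). In GC-1spg they made up 0% of the matched copies and, with the unmatched tag counted, 71.9% (interval 68.1 to 75.5). Sites inside the coding sequence also gave tags, such as the site across exons 2 and 3 (15 and 34 copies). These shares therefore do not measure which 3′ ends were used.

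**Figure D2:**
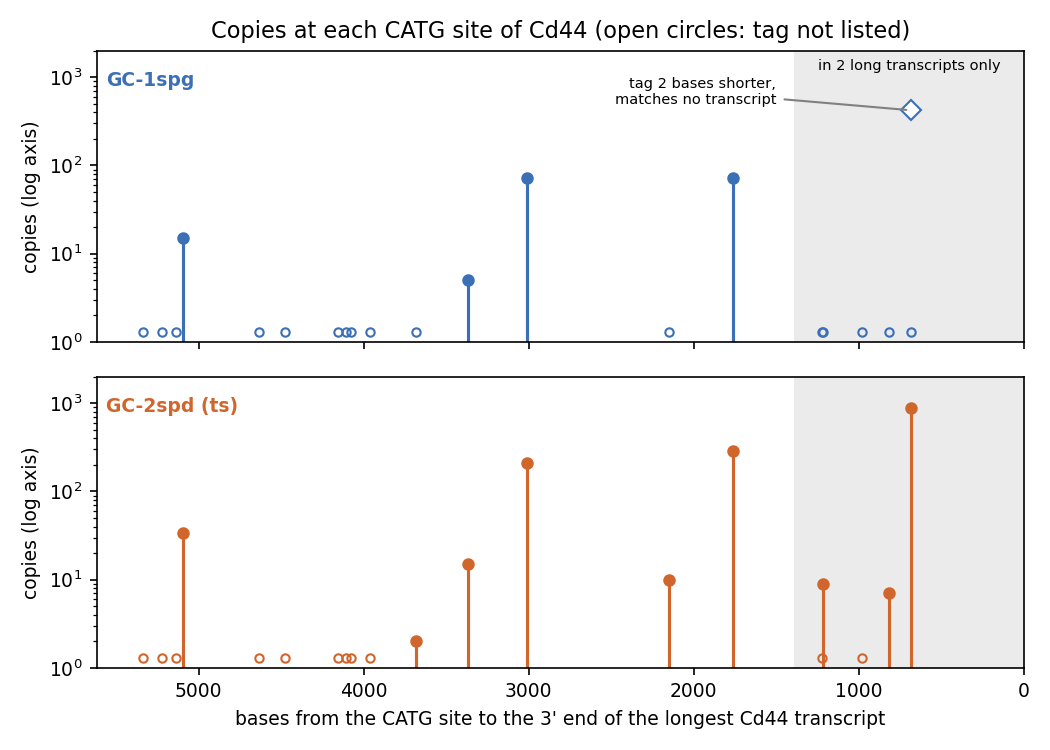
Copies (log axis) of the sense tag at each CATG site of the longest *Cd44* transcript against the distance of the site from its 3′ end in bases, for GC-1spg (above) and GC-2spd (ts) (below), with open circles for sites without a listed tag and grey for the stretch held by 2 long transcripts only. The last site holds 876 copies in GC-2spd (ts) and no matched copy in GC-1spg, where the open diamond gives the 423 copies of the tag 2 bases shorter.

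*Eng*, the co-receptor endoglin, was not listed in GC-1spg and had 34 copies (7.19 TPM) in GC-2spd (ts). It was called higher (FDR 2.28e-10), by at least 4.71-fold when every tag seen in GC-2spd (ts) is allowed 1 unlisted copy in GC-1spg. Of the 34 copies, 27 came from the last site of the gene, at chr2:32682529-32682549 (GRCm38, plus strand) in the 3′ UTR of exon 15, and 5 and 2 came from other sites. Without that main tag the counts were 0 and 7 and the call was lost (FDR 2.72e-02).

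*Cd34*, the sialomucin, had 62 copies in the GC-1spg library against 153 in GC-2spd (ts), that is 12.2 against 32.4 TPM, and was called 2.65-fold higher (log2 ratio 1.40, interval 0.97 to 1.85, FDR 1.07e-10). One tag in the 3′ UTR of exon 8 (chr1:194960533-194960553, plus strand) gave 57 and 134 of these copies. The other tags together had 5 and 19 copies, a log2 ratio of 2.03 in the same direction, but with an FDR of 9.85e-03 that missed the threshold. Of the 19 copies, 4 came from a tag that matches the main site with 1 mismatch and was not listed in GC-1spg. This ratio is therefore not a check by separate sites alone. The longest annotated transcript of the gene does not hold the main site, and with only the longest transcript per gene *Cd34* kept 2 and 7 copies and lost its call (FDR 2.39e-01).

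*Ly6a*, which codes for the GPI-anchored antigen Sca-1, was called lower in GC-2spd (ts). Its copies numbered 139 in GC-1spg against 44 in GC-2spd (ts), that is 27.4 against 9.31 TPM, a 2.94-fold difference (log2 ratio -1.56, interval -2.08 to -1.06, FDR 1.35e-10). All of these copies came from 1 tag in the 3′ UTR (chr15:74994908-74994928, minus strand), so no further site of the gene checks the value.

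*Ly6c1*, a neighbour of *Ly6a* on chromosome 15 and an antigen of monocytes and endothelial cells, had 35 and 11 copies (6.90 and 2.33 TPM). Its log2 ratio of -1.57 (interval -2.69 to -0.56) was as large as that of *Ly6a*, but its FDR of 2.37e-03 missed the threshold. With TMM scaling it passed (FDR 5.91e-04). Its tag lies in the 3′ UTR at chr15:75045053-75045073 and belongs to *Ly6c1* alone, whereas a tag shared with the near-identical *Ly6c2* had 3 copies in GC-1spg but none in GC-2spd (ts) and was counted for neither gene.

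*Alcam*, the adhesion molecule CD166, had the largest fold between the libraries among the markers listed in both. Its rank above *Cd44* (log2 interval 3.02 to 3.49 by matched tags) lay within counting error. *Alcam* had 47 copies in GC-1spg (9.27 TPM) against 3 in GC-2spd (ts) (0.635 TPM). It was called 14.6-fold lower in GC-2spd (ts) (log2 ratio -3.87, interval -6.20 to -2.23, FDR 6.03e-10). The copies in GC-1spg were spread over 8 tags of its 3′ UTR on chromosome 16, led by a tag with 14 copies at chr16:52250431-52250451 and a tag with 13 copies. The first of them carried the 3 copies of GC-2spd (ts), and without it the counts were 33 and 0 and the call held (FDR 2.33e-09).

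*Mcam*, which codes for CD146, had 7 copies in the GC-1spg library against 6 in GC-2spd (ts), 1.38 against 1.27 TPM, from 1 tag in the 3′ UTR (chr9:44142505-44142525, plus strand). Its log2 ratio of -0.12 had an interval from -1.97 to 1.68. At this depth a difference of about the size of that of *Ly6a* was therefore not excluded in either direction. *Nt5e* (CD73) had 2 copies of its own tag in GC-2spd (ts), at chr9:88371731-88371751 in the 3′ UTR, and none in GC-1spg. A repeat of G and A at a CATG in 1 of its transcripts had 94 and 39 copies, but that tag is shared with 13 other genes and was not counted.

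*Thy1*, the first of the sorting antigens, was not listed in either library. Its transcripts hold 9 CATG tags, each of them belonging to *Thy1* alone, and the last lies at chr9:44048502-44048522 in the 3′ UTR. Since the authors had removed tags of 1 copy, the lists do not show whether any of the 9 tags was read once.

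Levels can be ordered across genes on the TPM scale only roughly. A transcript gives in principle 1 tag whatever its length, but shared and unmatched tags are not counted, and that loss differs between genes. The intervals of the order below cover counting error only. In GC-1spg the matched tags put *Cd44* first, but its 165 copies did not differ beyond counting error from the 139 copies of *Ly6a* (ratio 1.19, interval 0.94 to 1.50), whereas *Ly6a* exceeded *Cd34* by 2.24-fold (interval 1.65 to 3.08). With the unmatched tag counted, *Cd44* had 588 copies there. *Cd34*, *Alcam* and *Ly6c1* followed without a step larger than counting error, and *Mcam* lay 5-fold under *Ly6c1* (interval 2.19 to 13.3). In GC-2spd (ts) *Cd44* exceeded *Cd34* by 9.57-fold (interval 8.10 to 11.4) and *Cd34* exceeded *Ly6a* by 3.48-fold (interval 2.47 to 4.98). *Ly6a* and *Eng* could not be separated (ratio 1.29, interval 0.81 to 2.09), *Eng* exceeded *Ly6c1* by 3.09-fold (interval 1.53 to 6.76), and *Ly6c1*, *Mcam*, *Alcam* and *Nt5e* formed a tail with no separable neighbours.

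**Figure D3:**
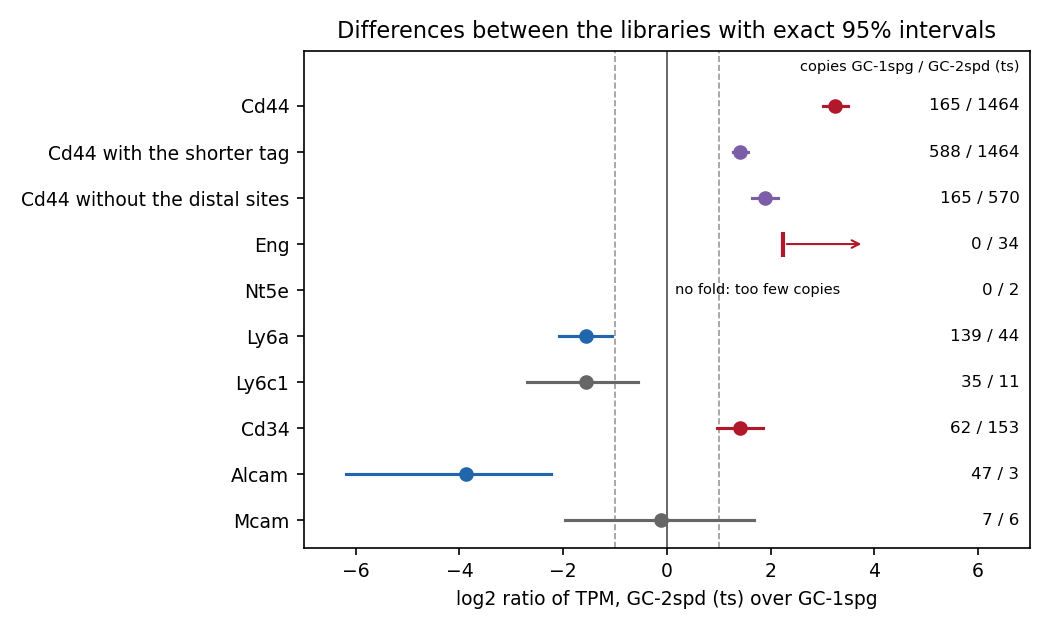
Log2 ratio of TPM, GC-2spd (ts) over GC-1spg, for each listed marker with its exact 95% interval, in red for genes called higher, blue for genes called lower, grey for genes not called and purple for *Cd44* counted in other ways, beside the copies in each library. The arrow of *Eng* starts at its lower bound. *Cd44* stays right of the dashed line at a log2 ratio of 1 in all 3 countings, but only the matched tags put it above 3.

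The genes whose levels in the 2 libraries lay nearest those of a marker were taken by the sum of absolute differences in log2(TPM + 0.1) among genes with at least 100 tags. For *Cd44* they were *Vgll3* (178 and 1341 copies), *Prss23* (203 and 1497 copies) and *Ndufb7* (206 and 1307 copies). For *Ly6a* they were *Thg1l*, *Pwwp2b* and *Nfxl1*, and for *Cd34* they were *Cdc14b*, *Tsr2* and *Alg6*. Likeness over 2 libraries is a description of these 2 levels only, and the neighbours of *Cd44* hold for its matched tags.

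Other antigens by which stromal and mesenchymal cells are sorted also went both ways. Of 29 such genes 25 were listed, 7 were called higher in GC-2spd (ts), 3 were called lower, and the median log2 ratio was 0.00. Over all genes tested 11.7% were called higher and 7.84% lower, with a median of 0.13, and these values are the background for each list below. The integrin subunit *Itgb1* (CD29) rose from 929 to 2194 copies (2.53-fold), the prion protein gene *Prnp* rose from 265 to 769 copies, the antiviral membrane protein gene *Bst2* rose 13.4-fold from 36 to 448 copies, and the tissue factor gene *F3* rose from 54 to 390 copies. Like *Eng*, *Cspg4* (NG2) and *Pdgfrb* had 0 copies in GC-1spg, with 104 and 84 copies in GC-2spd (ts), at least 8.49-fold and 8.57-fold higher. *Vcam1*, an adhesion molecule for leukocyte integrins, fell from 129 to 30 copies, and the tetraspanin gene *Cd81* fell from 1071 to 409 copies. The tetraspanin gene *Cd63* (2530 and 2362 copies) and the podoplanin gene *Pdpn* (913 and 1139 copies) were not called.

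The Ly6 family beside *Ly6a* and *Ly6c1* was sparse. Of 23 genes in the list 21 were in the annotation and 11 of these had a listed tag, 2 were called higher and 4 lower, with a median log2 ratio of -0.63 (0.00 with unlisted genes at their bound). *Ly6e*, a broadly expressed member, rose from 44 to 356 copies (log2 ratio 3.12, interval 2.66 to 3.60), opposite to *Ly6a*. *Psca* went from 2 to 18 copies, a call lost with TMM scaling and with scaling to unambiguous sense tags. *Lypd6* fell from 46 to 9 copies and *Lypd6b* from 29 to 2 copies, while *Ly6f* (20 copies) and *Slurp1* (13 copies) were listed in GC-1spg only. *Ly6c2* had 2 copies in GC-1spg but none in GC-2spd (ts). Not called were *Plaur*, the urokinase receptor gene, with 333 and 200 copies, and *Cd59a*, the complement regulator gene, with 24 and 38 copies.

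The genes around CD44, which make, degrade or bind hyaluronan or tie CD44 to the cytoskeleton, had 3 calls in each direction among 19 listed of 26, with a median of 0.18 (0.00 with unlisted genes at their bound). The ERM proteins, which link the tail of CD44 to actin, diverged: *Ezr* fell from 1701 to 764 copies, *Rdx* rose from 903 to 2025 copies, and *Msn* had 449 and 473 copies without a call. Among the hyaluronan synthases *Has1* had 26 copies in GC-1spg but none in GC-2spd (ts), *Has2* had none and 6 copies without a call, and *Has3* was not listed. *Hyal2*, a hyaluronidase, rose from 40 to 94 copies, and *Cemip2*, which depolymerises hyaluronan at the surface, fell from 62 to 23 copies. *Khdrbs1* (Sam68), a splicing factor known to act on CD44 variable exons, went from 421 to 793 copies, a call lost under both other scalings. *Hmmr*, the other hyaluronan receptor with many copies, had 329 and 299 copies, and *Spp1*, the osteopontin ligand of CD44, had 1449 and 2271 copies (1.68-fold, not called).

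Around endoglin, 25 of 30 receptor, ligand, SMAD and ID genes were listed, 5 were called higher and 5 lower (3 and 6 with TMM scaling), with a median log2 ratio of 0.05. *Acvrl1*, the receptor (ALK1) with which endoglin acts in endothelial cells, was not listed in either library, nor were the ALK1 ligand genes *Gdf2* and *Bmp10*. The type II receptor gene *Tgfbr2* had 210 and 243 copies and was not called. The other co-receptor gene, *Tgfbr3* (betaglycan), fell from 217 to 70 copies while *Eng* rose from 0 to 34. *Inhba*, the activin A subunit, rose 26.6-fold from 35 to 869 copies, *Smad1* rose from 56 to 341 copies, *Bmp4* fell from 426 to 134 copies, and *Id1*, a target of BMP signalling, fell from 1386 to 481 copies. *Smad7* (308 and 598 copies) was called higher only with scaling to all clean tags. *Id3* (1330 and 1280 copies) and *Id2* (768 and 802 copies) were not called.

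Partners of the remaining markers were as follows. For the adenosine pathway of CD73, 13 of 18 genes were listed and 1 was called, *Enpp3* (0 and 12 copies), whose call was lost under both other scalings. *Entpd1* (CD39), which supplies AMP to CD73, was not listed, *Ada* had 30 and 40 copies, *Adora2b* had 2 and 5 copies, and the adenosine transporter gene *Slc29a1* had 616 and 315 copies, called lower only with TMM scaling. *Adk*, the adenosine kinase gene, had 307 copies in GC-2spd (ts) and 346 in GC-1spg without a call. Of 29 genes that build or remodel the GPI anchor of THY1, NT5E and the Ly6 proteins 28 were listed, of which *Piga* rose from 61 to 179 copies and *Pigt* and *Pigyl* fell from 145 to 59 and from 127 to 48 copies. The mannose donor genes *Dpm1* (455 and 275 copies) and *Dpm2* (190 and 310 copies) had most tags and were not called.

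Of 23 adhesion partners and relatives of CD34, ALCAM, MCAM and THY1 17 were listed, 1 was called higher and 6 lower, with a median log2 ratio of -0.46. *Podxl*, the sialomucin nearest CD34 in structure, had 295 copies in GC-1spg but none in GC-2spd (ts), a difference of at least 17.5-fold opposite to that of *Cd34*. *Lama5* fell from 642 to 13 copies, *Sdc4* from 802 to 293, *Bcam*, a laminin receptor gene, from 85 to 13, and *Pag1* from 78 to 32 copies, and the integrin subunit *Itgb3* had 52 copies in GC-1spg only. *Lama4*, a laminin chain bound by MCAM, had 18 and 7 copies without a call, and *Cd6*, which codes for the ligand of ALCAM on leukocytes, was not listed. The galectin gene *Lgals3* rose from 45 to 96 copies, while *Lgals1* (10402 and 8260 copies) and *Sdcbp* (1266 and 1572 copies) were not called.

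**Figure D4:**
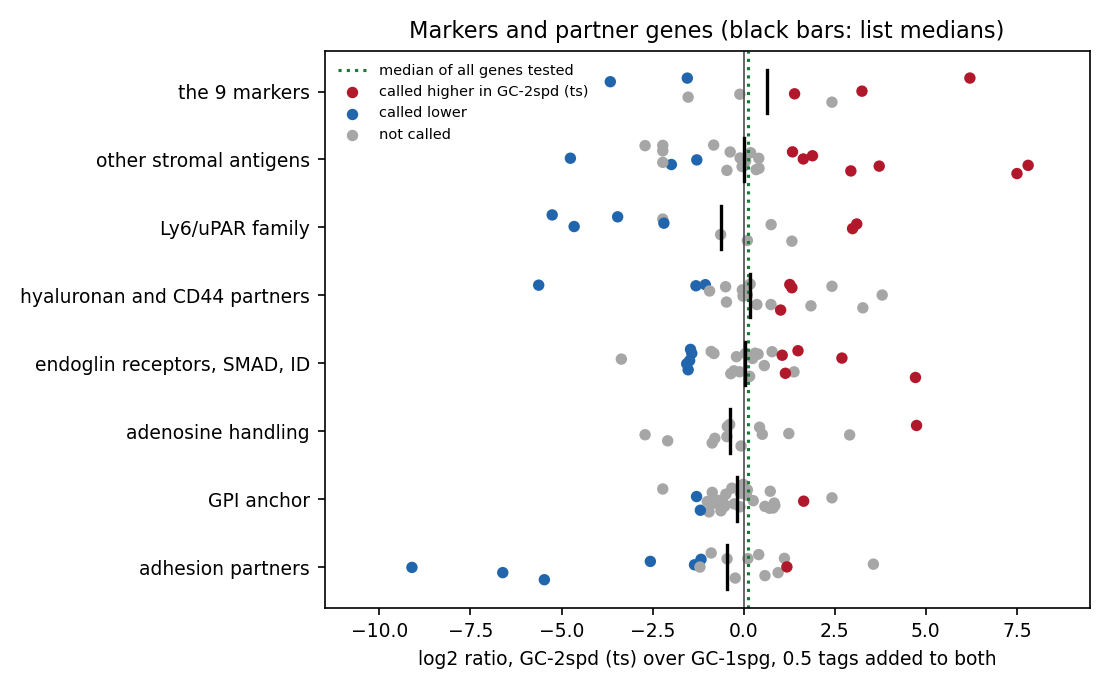
Log2 ratio, GC-2spd (ts) over GC-1spg with 0.5 tags added to both counts, of each listed gene among the 9 markers and in 7 lists of related genes, in red for genes called higher, blue for genes called lower and grey for genes not called, with list medians as black bars and the median of all genes as a dotted line. Calls lie on both sides in every list but the adenosine list. The medians of the 7 related lists lie between -0.63 and 0.18, and that of the markers lies at 0.65.

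Markers of the cell types that carry these antigens were read beside them. Of 10 fibroblast markers 9 were listed, and their copies summed to 14838 in GC-1spg against 7217 in GC-2spd (ts), a difference carried by *Col1a1* (10465 and 2425 copies). Without it the sums were 4373 and 4792 copies, and over the 9 genes 3 were called higher and 2 lower, with a median log2 ratio of 0.67. Among them were *Dcn* at 710 and 2, *Fbln2* at 347 and 1968, and *Postn* at 0 and 175 copies. All 7 myoid markers were listed in either library (184 and 671 copies in sum), and *Acta2*, the only one called, made up 50 and 555 of these. *Smtn* (118 and 90 copies) and *Des* (11 and 4) went the other way without a call. *Cnn1* had 5 and 15 copies, and *Myh11*, *Tagln* and *Actg2* had at most 3 copies in GC-2spd (ts) and 0 in GC-1spg. Of 13 germ cell markers only *Uchl1* was listed (329 and 66 copies), and *Ddx4*, *Dazl* and *Sycp3* were at 0 in both libraries, which goes against the germ cell name of the source label. The Sertoli list had 3 of 8 genes listed: *Wt1* at 620 and 0, *Sox9* at 29 and 46, and *Amh* at 5 and 0 copies. The Leydig list had 2 of 7, with at most 5 copies each. *Pecam1* and *Cdh5* of the endothelial list and *Ptprc* of the haematopoietic list were at 0 in both libraries, and these lists held 1 of 8 and 3 of 12 genes, with sums of 2 and 4 and of 9 and 9 copies. Whether mixed cell populations have a part in the marker levels was not tested, and in bulk RNA fewer cells with a transcript and less of it per cell cannot be told apart.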

How the data were processed

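Total RNA of 1 culture sample each of GC-1spg and GC-2spd (ts) was made into NlaIII DGE libraries (CATG and 17 bases). The authors removed adaptor, low quality and single copy tags and deposited a raw count (copy number) per tag together with a TPM value, the count per 1000000 clean tags. The deposited TPM served to check the counts. The counts sum to 5072149 (GC-1spg) and 4726808 (GC-2spd (ts)), so 1 copy is 0.197 and 0.212 TPM, and no count is below 2.

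Tags were matched to all CATG sites of the GENCODE M21 transcripts (GRCm38), exactly or else with 1 mismatch, on both strands, which gave 573182 sense reference tags. Sense tags whose best matches lay in 1 gene were summed per gene. All 14450 genes with a count entered the Audic-Claverie test with Benjamini-Hochberg adjustment (thresholds FDR 0.001 and log2 ratio 1, with unlisted genes at 0.01 TPM). Without replicates the quasi-likelihood test of edgeR could not be fitted. Ratio intervals are exact (Clopper-Pearson, 95%), and shares likewise. The lower bound against an unlisted gene uses the one-sided 95% Poisson limit with 1 unlisted copy allowed for each of its tags seen in the other library. Intervals cover counting error only. In a self-test on simulated counts, changes were put only into genes with at least 30 tags. With counting error alone, most of these changes were recovered. It cannot show how the calls fare under spread between cultures.

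The members, the 7 related lists and the 7 cell type lists were chosen with earlier results of these data known. Named were all members, for each list up to 6 called and 2 uncalled genes with most tags, direct partners of the members, and the 3 genes nearest each called member with at least 100 tags. *Cspg4*, *Pdgfrb*, *Itgb3*, *Gdf2*, *Bmp10*, *Cd6* and the cell type genes at 0 in both libraries were named beyond this rule, after their values were seen. Alternatives were exact matching, other reference tags, strand, scaling (TMM, sense tags), test, filter, zero value and the edgeR exact test under an assumed biological coefficient of variation (BCV). The counting of *Cd44* with the unmatched tag, and the counts without the most abundant tag, were chosen after seeing the data. The software was edgeR 4.0.16 under R 4.3.3, and scipy 1.17.1, numpy 2.4.6, matplotlib 3.10.9 and pandas 2.3.3 under Python 3.11.15.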

Additional observations from a re-analysis of the deposited data

Results flagged for a closer look

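Antisense tags, which enter none of the gene sums above, were listed for 5 of the 9 markers, and all values here are copies of tags that match the opposite strand of 1 gene only. *Cd44* had 83 antisense copies in the GC-1spg library against 319 in GC-2spd (ts), for a log2 ratio of 2.04 (95% interval 1.69 to 2.41). Most of them came from 1 tag, with 43 and 197 copies. *Eng* had 27 antisense copies in GC-2spd (ts) but none in GC-1spg, 21 of them from the tag nearest the 3′ end of its second transcript. *Alcam* had 15 antisense copies in GC-1spg against 3 in GC-2spd (ts). *Cd34* had 4 and 9 antisense copies, and *Ly6a* had 3 and 2. The counts of 3 or fewer do not exceed the 3 copies that a count of 0 allows, and no control library exists against which to read the others. The genes with more sense copies in a library also had more antisense copies there for *Cd44*, *Eng*, *Alcam* and *Cd34*.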

How the results depend on the processing

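Over 14 other settings of matching, scaling and test, 102 of the 111 log2 ratios of single markers kept their direction and their side of the thresholds. A further 8 kept the direction but lost the call, 1 (*Ly6c1* with TMM) gained it, and none reversed. Settings that changed only the test or the filter leave the log2 ratio as it was, so no reversal was possible there. For a gene with tags in GC-1spg as well as in GC-2spd (ts), TMM moved its log2 ratio by -0.174 and scaling to unambiguous sense tags by -0.084, and of the genes called 59.8% were higher in GC-2spd (ts) as reported, 47.2% with TMM and 53.7% with sense scaling. The spread between cultures is not known, and an assumed one changed most: under the edgeR exact test the 5 marker calls became 3 at a BCV of 0.2 and 0 at a BCV of 0.4, the 2817 gene calls became 1000 and 244, and the 43 calls in the related lists became 14 and 6. *Ly6a* and *Cd34* lost their calls at a BCV of 0.2, and *Cd44*, *Eng* and *Alcam* did so at 0.4. For *Cd44* this holds for the matched tags only (9.52-fold). The counting with the unmatched tag (2.67-fold) was not run under a BCV, so whether that call outlasts a BCV of 0.2 was not tested. Of the alternatives added after seeing the data, leaving out the most abundant tag left fewer copies and ended the calls of *Eng* (0 and 7 copies) and *Cd34* (5 and 19 copies, log2 ratio 2.03 against 1.40 with all tags). For *Cd34*, 4 of the 19 copies left were of a form of the main tag with 1 mismatch. Counting the unmatched GC-1spg tag took *Cd44* from 9.52-fold to 2.67-fold. The number of copies limits *Mcam*, *Nt5e* and *Thy1*, for which the data decide little. No paired analysis was possible because each cell line has 1 library, and no library could be left out for the same reason.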
